A study of Mus musculus with 6 samples.

Results

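The urokinase receptor and the plasminogen activator system were examined in mouse ID4-GFP+ spermatogonia. These are dividing male germ cells marked by a green reporter of Id4, whose product is an inhibitor of basic helix-loop-helix (bHLH) transcription factors. The 5 genes are Plaur, Plau, Plat, Serpine2 and Serpinb2, taken by symbol from a deposited table of 23355 gene entries, of which the authors tested 10990. They were chosen because Plaur had the largest rise among the genes the authors called, so the values of this contrast are a description of the set and lend it no support. The groups were cells from mice with constitutive germ cell overexpression of ID4 (3 samples) and from control mice (3 samples). All samples are labelled testis. The age of these animals, the promoter of the transgene and the genotype of the controls are not given in the sources used here, nor is it stated whether the samples came from separate animals, so the authors' q-values reflect a spread between samples that may be technical. The Bright and Dim reporter fractions named in the series title are not analysed here.

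The system turns the circulating proenzyme plasminogen into plasmin, a protease that cleaves fibrin and extracellular matrix. Plau and Plat encode its activators, urokinase and tissue-type plasminogen activator, and Plaur encodes the receptor that holds urokinase at the cell surface through a glycosylphosphatidylinositol anchor. Serpine2 encodes protease nexin-1, an inhibitor of thrombin, urokinase, tissue-type activator and plasmin, and Serpinb2 encodes plasminogen activator inhibitor type 2. In the testis, plasminogen activators are best known as products of Sertoli cells, where they have been linked to the release and movement of germ cells through the seminiferous epithelium.

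Expression was deposited as FPKM, fragments scaled to transcript length and library size, with 1 value per group that the authors had combined over the 3 samples. No replicate SD, counting interval or depth per library can therefore be given for any level. A gene is called here where the authors' own test gave a q of 0.05 or less, and the spread between samples enters only through that test. Under this rule 17.0% of the tested genes were called, 9.59% higher and 7.42% lower with ID4 overexpression. The median log2 fold change of all tested genes was 0.01, with quartiles of -0.23 and 0.27. The label of the cells was checked on 14 spermatogonia markers. All were tested. Id4, Gfra1 and Ret were called higher (3 genes, 21.4%) and Uchl1, Lin28a, Utf1, Kit and Stra8 lower (5 genes, 35.7%). The marker levels thus differed between the groups. Gfra1 had 37.3 FPKM with ID4 overexpression and 15.8 FPKM in controls, and Kit had 38.1 FPKM with overexpression and 84.3 FPKM in controls. The germ cell genes Dazl (790 FPKM with ID4 overexpression and 918 FPKM in controls) and Ddx4 (255 FPKM with overexpression and 250 FPKM in controls) were abundant and not called. Id4, the overexpressed gene, had 13.4 FPKM in the overexpression group and 6.37 FPKM in controls, a 2.11-fold rise. Since Id4 was overexpressed by design, its call is no check of the label.

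The promoters of Plaur, Serpine2 and Serpinb2 are shown because they let the start regions of a called higher, a called lower and a little expressed gene of the system be read side by side. RefSeq sequences of GRCm38.p6 were found for 3 of the 5 genes, each running from 250 bases before the start site to 50 bases after it, 5′ to 3′ on the gene's own strand. In Plaur (chr7:24462233-24462532, plus strand) capitals mark matches to the AP-1 letters TGANTCA, the PEA3 letters AGGAAG and the GC box GGGCGG. In Serpine2 (chr1:79858616-79858915, minus strand) they mark the GC box and the E-box CANNTG, the letters that bHLH factors bind. In Serpinb2 (chr1:107511173-107511472, plus strand) they mark the AP-1 letters and TATAAA.
Plaur: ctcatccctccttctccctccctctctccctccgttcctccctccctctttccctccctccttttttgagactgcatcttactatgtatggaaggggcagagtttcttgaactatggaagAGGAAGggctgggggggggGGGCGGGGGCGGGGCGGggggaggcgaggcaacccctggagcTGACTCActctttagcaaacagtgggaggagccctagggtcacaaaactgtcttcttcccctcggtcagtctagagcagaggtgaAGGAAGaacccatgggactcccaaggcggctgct
Serpine2: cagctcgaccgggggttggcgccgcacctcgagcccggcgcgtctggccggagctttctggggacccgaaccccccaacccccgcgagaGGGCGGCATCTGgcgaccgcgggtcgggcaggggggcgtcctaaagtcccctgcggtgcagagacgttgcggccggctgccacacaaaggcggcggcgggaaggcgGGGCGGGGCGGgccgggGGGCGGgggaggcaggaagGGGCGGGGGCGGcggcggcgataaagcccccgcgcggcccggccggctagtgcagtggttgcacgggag
Serpinb2: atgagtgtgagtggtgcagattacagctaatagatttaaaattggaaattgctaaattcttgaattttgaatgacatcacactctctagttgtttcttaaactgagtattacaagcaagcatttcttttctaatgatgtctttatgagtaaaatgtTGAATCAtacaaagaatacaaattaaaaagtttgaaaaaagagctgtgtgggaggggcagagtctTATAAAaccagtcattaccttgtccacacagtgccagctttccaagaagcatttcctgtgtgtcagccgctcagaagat
Matches were sought on both strands, and overlapping matches were counted separately. The Plaur window holds 1 AP-1 match that begins 69 bases before the start site, a run of 3 GC boxes, of which the last 2 overlap, and 2 PEA3 matches; the run also holds the EGR letters GCGGGGGCG. No E-box and no TATAAA lies in it. The Serpine2 window holds 6 GC boxes, 1 E-box, 1 PEA3 match and 1 EGR match that overlaps GC boxes, with neither AP-1 nor TATAAA. The Serpinb2 window holds 1 AP-1 match and 1 TATAAA, which begins 29 bases before the start site, and none of the other 4 motifs. RefSeq gives Serpinb2 a further start, whose window (chr1:107511260-107511559) holds the same AP-1 and TATAAA letters 181 and 116 bases before it. Among 32851 promoter windows of the same length, AP-1 letters occur in 7.81%, PEA3 in 35.4%, the E-box in 72.3%, the GC box in 35.7%, EGR in 2.91% and TATAAA in 13.6%. At least 3 GC boxes occur in 10.7% of windows and at least 6 in 1.35%. GC content is 59.3% in the Plaur window, 77.7% in Serpine2 and 35.3% in Serpinb2, against a median of 52.7% over all windows. These matches describe letters and are not binding sites.

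Transcripts of the receptor and of a main inhibitor moved in opposite directions, while the activators gave either a small difference or almost no signal. Of the 5 genes, 3 were tested by the authors: Plaur was called higher, Serpine2 was called lower and Plat was not called. The share called in the whole table was 17.0%, and nothing is read from the count of members, since they were chosen on this contrast. Plau and Serpinb2 were not tested and stayed under 1 FPKM in both groups. FPKM is scaled by transcript length, so levels can be set side by side: with ID4 overexpression the order was Serpine2, Plaur, Plat, Serpinb2, Plau, and in controls it was Serpine2, Plat, Plaur, Serpinb2, Plau. Whether neighbours in either order differ beyond the spread of the samples cannot be said from combined values.

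**Figure D1:**
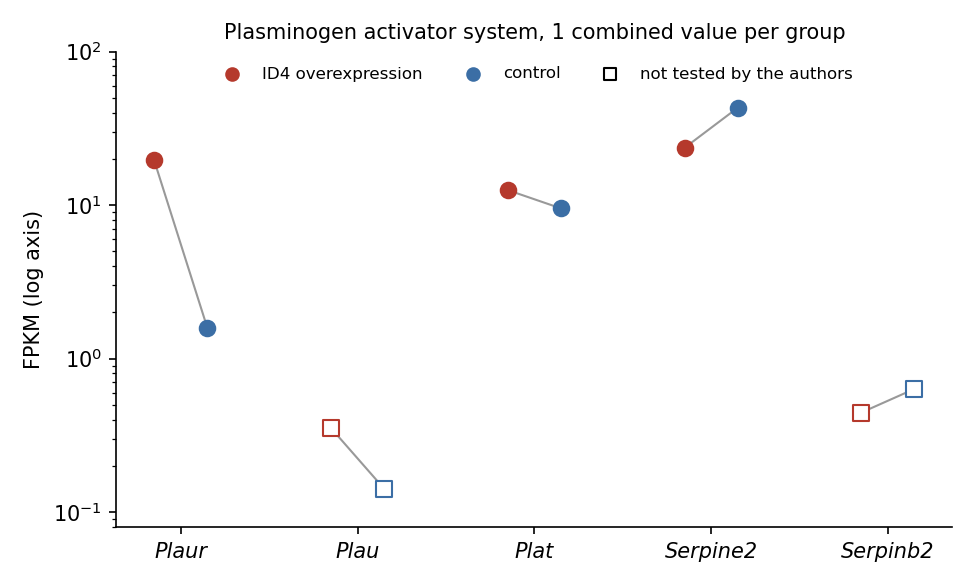
FPKM of the 5 genes on a log axis, with 1 combined value per group: ID4 overexpression in red on the left of each pair and control in blue on the right. Open squares are genes the authors did not test. Plaur stands at 19.5 FPKM with overexpression and 1.59 FPKM in controls, Serpine2 at 23.6 FPKM with overexpression and 43.0 FPKM in controls, and Plau and Serpinb2 lie under 1 FPKM in both groups.

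Plaur, the receptor, was present at 19.5 FPKM with ID4 overexpression, against 1.59 FPKM in controls, a 12.3-fold difference (log2 fold change 3.62, or 2.98 with a pseudocount of 1 FPKM). In controls only 5.05% of tested genes had a lower level than Plaur, whereas with overexpression 63.2% did. The authors' deposited table lists q = 0.000835 for it, the smallest q in that table and one shared with other genes to a total of 657. Among the 1869 called genes it ranks 1 by fold, and the 5 that follow had folds of 7.37 to 9.36. C1qc, a complement subunit made by macrophages, is 1 of those 5, with 7.56 FPKM under overexpression and 0.889 FPKM in controls, 8.50-fold. A further 6 tested genes had larger folds than Plaur but were not called; none exceeded 2.69 FPKM with overexpression or 0.132 FPKM in controls. By the difference in FPKM (17.9, overexpression minus control) Plaur does not lead, since 171 genes called higher gained more. The gene spans chr7:24462500-24475873 (GRCm38, plus strand). GENCODE M21 gives it 6 transcripts, of which 1 is protein-coding with 7 exons, and no protein-coding gene overlaps it. The combined gene value does not say which transcripts were present.

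**Figure D2:**
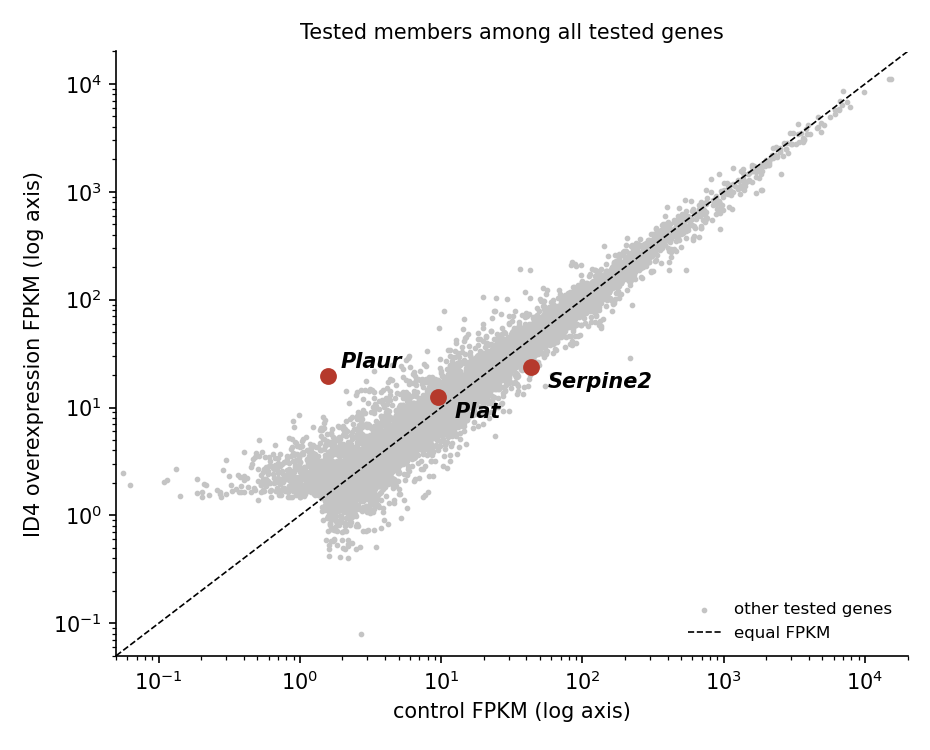
FPKM with ID4 overexpression (vertical, log axis) against FPKM in controls (horizontal, log axis) for every tested gene above 0 in both groups, with the tested members in red and equality dashed. Plaur, chosen as the largest called rise, stands above the cloud of other genes at 19.5 FPKM with overexpression and 1.59 FPKM in controls. Plat lies near the line and Serpine2 below it.

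Most tested markers of other testis and blood cells were called higher, as Plaur was. For comparison, the shares over all tested genes were 9.59% higher and 7.42% lower. All 13 tested macrophage markers, of 16 in the table, were higher with ID4 overexpression, and their summed level over the 16 was 282 FPKM with overexpression and 74.0 FPKM in controls. Their folds ran from 2.87 to 8.50; that Plaur stands above them follows from its choice as the largest called rise. Of 12 tested Sertoli cell markers 9 were higher (summed over 18 genes, 294 FPKM with overexpression and 97.9 FPKM in controls), and of 5 tested Leydig cell markers 4 were higher (over 9 genes, 76.1 FPKM with overexpression and 27.0 FPKM in controls). Of 3 tested peritubular and fibroblast markers 2 were higher (over 12 genes, 49.6 FPKM with overexpression and 22.3 FPKM in controls). The 1 tested endothelial marker of 8, Egfl7, was lower, and it overlaps Agpat2 and Gm20532. The other 7 were not tested and had at most 1.37 FPKM with overexpression. Of them, Pecam1, Cdh5, Kdr, Tek and Emcn were listed higher with overexpression, and Vwf and Esam lower. Neutrophils carry much urokinase receptor. Of their 9 markers in the table, 0 were tested, and S100a9 and Retnlg were at 0 in both groups. The sum of the 9 was 1.44 FPKM with overexpression and 2.17 FPKM in controls. Cst12 and Inha, Sertoli cell markers, had 65.8 and 28.5 FPKM with overexpression, against 14.5 and 5.81 FPKM in controls. Serpine2 was called lower, and its relation to these markers was not tested. The part of these cells in the values of Plaur and of the genes described next was not tested, and in bulk RNA more cells of a type and more RNA per cell cannot be told apart.

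None of the tested genes beside Plaur was called. Among the 5 table entries on either side, 4 were tested and 0 were called, with log2 fold changes of 0.12 to 1.29. The share called over all tested genes was 17.0%, so nothing is read from neighbour counts this small. Of the untested entries, Kcnn4, Irgc1, Irgq and Cadm4 were listed higher with overexpression and Pinlyp lower, and Lypd5 was at 0 FPKM in both groups. Xrcc1, a DNA repair scaffold 71.3 kb away, had 26.2 FPKM with ID4 overexpression and 24.1 FPKM in controls. Smg9, of nonsense-mediated decay and 39.7 kb away, had a log2 fold change of 0.15. Zfp428 had 4.03 FPKM with overexpression and 2.90 FPKM in controls, and Tescl had 2.66 FPKM with overexpression and 1.08 FPKM in controls. The nearest entry, Cadm4, lies 6.15 kb away and was not tested (0.811 FPKM with overexpression, 0.647 FPKM in controls). Around Serpine2, 4 of 10 neighbours were tested and 0 were called; its nearest one, Mrpl44, had 113 FPKM in both groups. Around Plat, Kat6a was higher (5.61 FPKM with overexpression and 3.94 FPKM in controls) and the other 5 tested neighbours were not called.

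**Figure D3:**
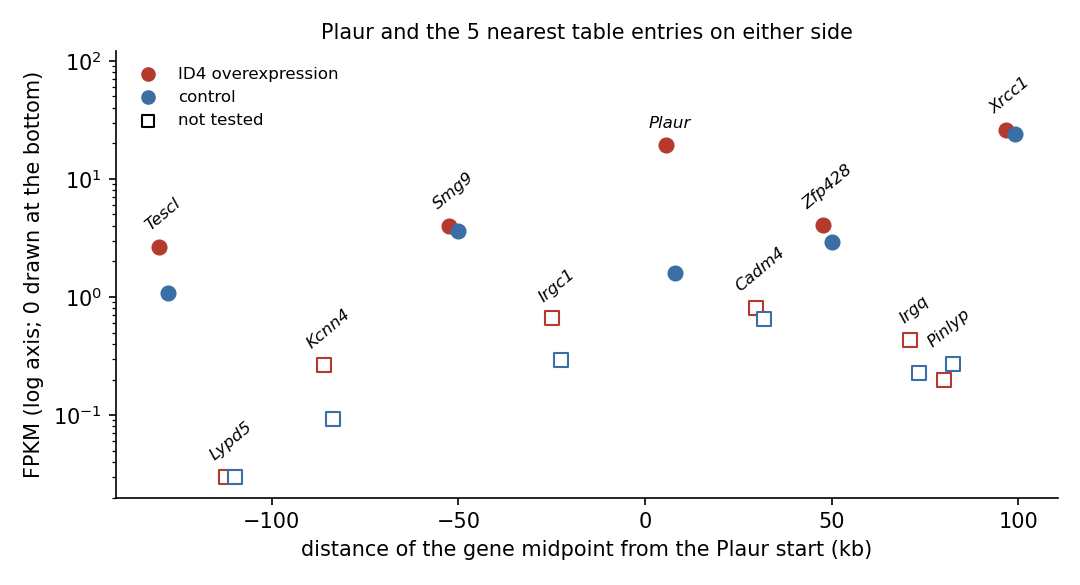
FPKM (log axis) of Plaur and the 5 nearest entries on either side against the distance of each gene's midpoint from the Plaur start in kb, with ID4 overexpression in red, control in blue and untested genes as open squares. Points at the bottom for Lypd5 stand for 0 FPKM in both groups. The pair of points is far apart at Plaur (19.5 FPKM with overexpression, 1.59 FPKM in controls) and close together at Xrcc1 and Smg9.

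Neither activator gene was called. Plau, which encodes urokinase, the ligand of the receptor, was listed at 0.352 FPKM with ID4 overexpression and 0.142 FPKM in controls, and the authors did not test it. Of the tested genes, 0.0364% had a lower level with overexpression and 0.0819% in controls. Plau lies on chromosome 14, positions 20836662 to 20843388, plus strand, and 9 of its 10 neighbours in the table were tested, with Camk2g and Adk called lower. Plat, which encodes tissue-type plasminogen activator, had 12.5 FPKM with overexpression and 9.51 FPKM in controls, a log2 fold change of 0.40 with q = 0.161 in the authors' deposited table. It is the main activator transcript in both groups and lies on chromosome 8, positions 22757744 to 22782848, plus strand. Its level is mid-range: 52.9% of tested genes were lower with overexpression and 46.7% in controls.

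Serpine2, the inhibitor, fell to 23.6 FPKM with ID4 overexpression, against 43.0 FPKM in controls (log2 fold change -0.86; q = 0.000835 in the authors' deposited table). It remained the most abundant of the 5 genes, and among the 815 genes called lower 316 fell further on the log2 scale. In controls its level exceeded that of 79.1% of tested genes, and with overexpression that of 67.5%. It lies on chromosome 1, positions 79794321 to 79858665, minus strand, with 3 protein-coding transcripts and no overlapping protein-coding gene. Set against the activator, Plat FPKM was 0.530 of Serpine2 FPKM with overexpression and 0.221 of it in controls. This ratio of combined values has no error and was not tested. Serpinb2, the type 2 inhibitor, was listed at 0.445 FPKM with overexpression and 0.634 FPKM in controls and was not tested (chromosome 1, positions 107511423 to 107525600, plus strand). Its nearest neighbours are other clade B serpins, of which Serpinb3b, Serpinb3c, Serpinb3d and Serpinb11 were at 0 FPKM in both groups.

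Genes whose levels in the 2 groups came closest to those of each tested member were found by distance over the log2 FPKM of both groups. Plaur was chosen as the largest called rise, which places it at the edge of the called genes, so nothing is read from its distances. The gene nearest to Plaur, Hmgb4, was 0.62 away, with 14.2 FPKM under ID4 overexpression and 2.12 FPKM in controls. Timp1, an inhibitor of metalloproteinases, came next at 0.82, with 14.0 FPKM under overexpression and 2.52 FPKM in controls, and was not called (q = 0.138 in the authors' deposited table). Cypt12 followed at 0.87. Hmgb4 overlaps Csmd2 and Timp1 overlaps Syn1; the use of strand in counting is not stated, so reads of such partners cannot be separated. Ptk2, which encodes focal adhesion kinase, was nearest to Serpine2, 0.01 away, with 23.7 FPKM under overexpression and 42.8 FPKM in controls. Near Plat, Fam49a was 0.01 and Mkrn1 0.02 away. With 2 values per gene such likeness describes levels only.

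Of the remaining proteins around plasmin, the plasminogen-binding pair rose and the substrate itself was hardly detected. The list of plasmin substrate, assembly and inhibitor genes held 21 genes, 20 of them in the table by these symbols and 6 tested: 3 were higher, 0 were lower, and the median log2 fold change was 0.43. Over all tested genes 9.59% were higher, 7.42% were lower and the median was 0.01. The summed macrophage markers were at 282 FPKM with overexpression and 74.0 FPKM in controls. S100a10, which with annexin A2 forms a cell-surface complex that binds plasminogen and tissue-type activator, had 42.0 FPKM with ID4 overexpression and 12.8 FPKM in controls. Anxa2, its partner, had 25.9 FPKM with overexpression and 16.1 FPKM in controls. Plgrkt, the gene of another plasminogen receptor, had 9.20 FPKM with overexpression and 8.17 FPKM in controls and was not called. Serpina5, the protein C inhibitor, which also blocks urokinase and is needed for male fertility in mice, had 6.60 FPKM with overexpression and 1.24 FPKM in controls, 5.33-fold. Serpini1, neuroserpin, an inhibitor of tissue-type activator, had 14.3 FPKM with overexpression and 17.7 FPKM in controls and was not called. Plg, the gene of plasminogen, which is made mainly by the liver, was listed at 0.0405 FPKM with overexpression and 0.0674 FPKM in controls. Plg was not tested, and was named after its values were seen. Of 23 listed serpins of clades B and E other than the members, only Serpinb6a was tested. It had 19.2 FPKM with overexpression and 17.2 FPKM in controls and was not called. Serpinb6a overlaps Nqo2 and Ripk1, and whether related serpin genes shared its reads was not checked.

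Transcripts of some proteins that work with the urokinase receptor were called higher. Having no transmembrane part, the receptor acts through integrins and is cleared with bound protease and inhibitor by LRP1. Of 26 such genes, 13 were tested, 5 were higher and 2 were lower, the median log2 fold change being 0.29. These are 38.5% and 15.4% of the tested genes of the list, where the whole table had 9.59% higher and 7.42% lower. Itgb2, the integrin beta-2 chain of leukocytes, had 2.06 FPKM with ID4 overexpression and 0.734 FPKM in controls. Lrp1, the clearance receptor, had 6.31 FPKM with overexpression and 2.67 FPKM in controls. Itgb5 had 8.43 FPKM with overexpression and 3.74 FPKM in controls. Bcar1, the p130Cas adaptor of integrin signalling, had 5.45 FPKM with overexpression and 2.96 FPKM in controls. The lower genes were Ptk2 and Lrpap1, the LRP1 chaperone (41.0 FPKM with overexpression and 56.3 FPKM in controls). Ptk2 sits on chromosome 15, whose 413 tested genes were called lower in 56.2% of cases and higher in 3.87%. Vtn, the gene of the receptor's matrix ligand vitronectin, was at 0.139 FPKM with overexpression and 0.286 FPKM in controls, named after its values were seen. Macrophages express Itgb2, and their markers, as given above, were higher in the same comparison. The part of macrophages in the values of Itgb2 and of the other genes of this list was not tested.

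The protein family of the receptor, with its LY6/uPAR (LU) fold, held calls in both directions, few in number. Of 33 family members found in the table, 10 were tested, 2 were called higher and 2 lower, the median log2 fold change being -0.16. That is 20.0% each way among few genes, beside 9.59% higher and 7.42% lower over the table, and nothing is read from these counts. Tex101, a germ cell surface protein encoded 192 kb from Plaur, was the most abundant and had 400 FPKM with ID4 overexpression and 394 FPKM in controls. Lypd4, a testis protein encoded 389 kb from Plaur, had 2.96 FPKM with overexpression and 1.19 FPKM in controls. Cd59a, an inhibitor of the complement attack complex, had 3.64 FPKM with overexpression and 1.49 FPKM in controls; its close paralog Cd59b makes the split of reads uncertain. The lower members were Ly6k (5.43 FPKM with overexpression and 24.1 FPKM in controls) and Lynx1 (0.866 FPKM with overexpression and 2.29 FPKM in controls). Both lie on chromosome 15, and without that chromosome 2 were higher and 0 were lower. Of 7 members on chromosome 7 with Plaur, only Tex101 and Lypd4 were tested.

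**Figure D4:**
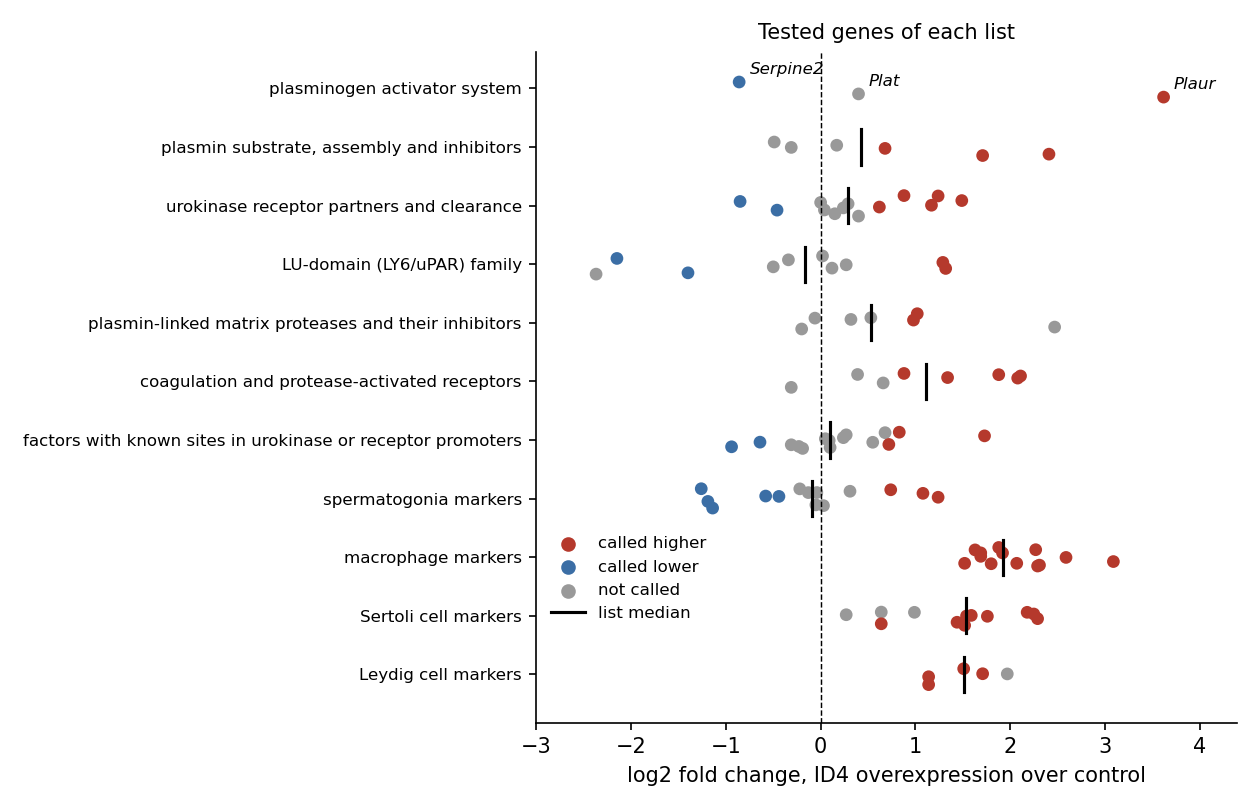
Log2 fold change, ID4 overexpression over control, of the tested genes of the lists shown. Each point is a gene, red where called higher, blue where called lower and grey where not called, with a bar at the list median. The lists of clade B and E serpins and of neutrophil, peritubular and fibroblast, and endothelial markers are not drawn. Egfl7, the endothelial marker called lower, is thus not in the figure. Plaur, at 3.62, was chosen as the largest called rise, and the macrophage, Sertoli and Leydig markers lie to the right of 0.

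Calls among the few tested genes of downstream proteases and of the clotting branch were all in the higher direction. Plasmin can activate metalloproteinases; of 23 metalloproteinase and inhibitor genes, 7 were tested, 2 were higher and 0 were lower, the median log2 fold change being 0.53. The share higher was 28.6%, resting on 2 genes, where 9.59% of all tested genes were higher. Mmp9, gelatinase B, had 11.5 FPKM with ID4 overexpression and 5.70 FPKM in controls. Mmp14, a membrane-type collagenase, had 2.18 FPKM with overexpression and 1.11 FPKM in controls. Of 21 coagulation genes and protease-activated receptors, 8 were tested, 5 were higher and 0 were lower, the median log2 fold change being 1.11. Here 62.5% were higher, beside the same 9.59% over the table. The share called lower over the table was 7.42%, so nothing is read from the lack of lower calls among so few genes. F13a1, the fibrin cross-linking factor XIII subunit, which macrophages also make, had 22.6 FPKM with overexpression and 5.35 FPKM in controls. F2r, the thrombin receptor, had 6.35 FPKM with overexpression and 2.51 FPKM in controls, and the related receptor gene F2rl1 had 3.65 FPKM with overexpression and 0.992 FPKM in controls. Pros1, protein S, had 1.66 FPKM with overexpression and 0.385 FPKM in controls. Thrombin is a target of the Serpine2 product, and its own gene F2, named after its values were seen, had 3.19 FPKM with overexpression and 3.95 FPKM in controls and was not called. The medians of the macrophage and Sertoli lists, on the log2 scale, were 1.92 and 1.53 in this comparison.

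Transcription factors known to act at urokinase or receptor promoters in other cells gave few calls. Of 24 listed, 15 were tested, 3 were higher and 2 were lower, the median log2 fold change being 0.10. With 20.0% higher and 13.3% lower among 15 genes, against 9.59% and 7.42% over the table, nothing is read from the counts. Etv4 and Etv5, ETS factors of the PEA3 group, had 8.35 and 58.3 FPKM with ID4 overexpression, against 2.52 and 35.4 FPKM in controls. Egr1, an early growth response factor, had 33.6 FPKM with overexpression and 18.9 FPKM in controls. Relb, a subunit of NF-kB, had 1.14 FPKM with overexpression and 2.18 FPKM in controls, and was lower. Fos, an AP-1 subunit named after its values were seen, had 65.9 FPKM with overexpression and 74.9 FPKM in controls and was not called. The other tested AP-1 genes of the list, Fosb, Jund and Atf2, had log2 fold changes of 0.68, 0.55 and 0.09 and were not called. Jun, Junb, Fosl1 and Fosl2 were not tested and were listed higher with overexpression. The relation of these factors to Plaur was not tested.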

How the data were processed

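RNA from ID4-GFP+ spermatogonia was extracted with Trizol and primed with oligo d(T), per the labels' protocols. TopHat, Cufflinks and mm9 appear, with neither version nor role, per the submitters' processing notes; strand and library scaling are not given in the sources used here. The authors deposited FPKM per gene as 1 value per group, with a p-value and q-value of their own test and a test score (statistic) that was not used. Its columns match the gene output of Cuffdiff, per the file headers. Depth per sample is unknown. The table's positions are those of GRCm38, since 99.1% of the symbols in GENCODE M21 overlapped the gene of the same name there; starts are printed 1-based. In all, 1 line of the table was emptied for this work.

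Fold changes were computed as overexpression over control FPKM, with no pseudocount. No model was fitted: calls are the authors' q of 0.05 or less among tested genes. The members and lists were chosen with earlier results of these data known. Besides the members, up to 4 called genes with the largest change are named per list. Where none was called, the 2 most abundant tested genes are named. The 5 table neighbours on either side and the 3 nearest genes by level are added, though not all are described. Plg, Plgrkt, Serpini1, Vtn, Lrpap1, Tex101, F2, Fos, the other AP-1 genes and the cell type markers were named outside this rule, with their values known. Motifs were chosen after the values were seen. The counting and motif steps were tested on simulated data. Python 3.11.15, pandas 2.3.3, NumPy 2.4.6 and matplotlib 3.10.9 were used. Alternatives were q of 0.01 and 0.1, minimum FPKM of 1, an absolute log2 fold change of at least 1, a promoter window of 150 bases, centring on the median change, and added pseudocounts (1 and 0.1).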

Additional observations from a re-analysis of the deposited data

How the results depend on the processing

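The Plaur log2 fold change of 3.62 was 2.98 with a pseudocount of 1, and it kept its direction under both pseudocounts and after subtraction of the median of tested genes, as did those of Plat and Serpine2. Of 39 alternative list medians, 0 changed sign, and the largest move was 0.36 on the log2 scale. Calls over the whole table numbered 1869, against 1114 at a q of 0.01 and 726 with a minimum absolute log2 fold change of 1. With that minimum, Plaur alone of the members was called (1 of 5, against 2), and the counts fell to 3 for receptor partners, 1 for matrix proteases and 1 for promoter factors. At a q of 0.01 the matrix protease list had 1 call and the promoter factors had 3. Without chromosome 15, an alternative chosen after seeing the data, the LU-domain family had 2 calls, both higher. These counts differ through fewer genes passing the rule. In the 150 bases nearest the start, the Plaur window kept its AP-1 match, 1 of 3 GC boxes and 1 of 2 PEA3 matches and lost its EGR match, and the Serpine2 window lost its E-box. The fold of Plau depended on the pseudocount: its log2 value was 1.31 without any, 0.90 with 0.1 and 0.24 with 1. No paired analysis was possible because each group has only 1 combined value; leaving out replicates and refitting with another tool were not run for the same reason.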
